A study of Mus musculus with 30 samples.

Results

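Livers of 5 DBA/2 mice (D2) were compared with livers of 5 C57BL/6 mice (B6), all 10 fed an iron-deficient diet that held under 3 mg of iron per kg. These 10 arrays were taken by strain and diet from the sample titles, out of 30 in the series. The other 20 arrays hold the same strains on a balanced diet (200 mg iron per kg) and on an enriched diet (8.3 g iron per kg), 5 mice per strain and diet. Total liver RNA of each mouse was labelled with Cy3 and hybridised alone to an Agilent mouse array, and each array is a separate animal with its own code. Both strains are inbred, and the labels name no transgene or agent. The sources used here give no sex, age, substrain, length of feeding or hour of sampling. The comparison asks how the liver transcriptome of D2 differs from that of B6 when iron is withdrawn.

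The liver senses iron and answers with hepcidin, a hormone that closes the iron exporter ferroportin. Sinusoidal endothelial cells release BMP6 when iron is plentiful, and BMP receptors on hepatocytes then signal through SMAD proteins to the hepcidin gene and to feedback genes such as Smad7, Id1 and Atoh8. On an iron-poor diet this pathway is turned down and iron is taken from stores. B6 and D2 are inbred strains that differ at many loci, and they are known to load iron in the liver to different degrees.

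Levels below are log2 of the quantile-normalised processed signal, and differences are D2 minus B6 on that scale. A level belongs to 1 probe, so levels are compared between strains and not between genes. Levels were floored at 3.80, the median over the arrays of the lowest signal well above background. Of 20670 genes tested, 5972 passed an adjusted p of 0.05 in limma, fitted over all 30 arrays. They are 28.9% of the genes, with 3094 higher in D2 (15%) and 2878 lower (13.9%). With no normalisation between arrays the median of all genes moved to -0.15, and 5182 passed, 1597 higher (30.8% of those that passed, beside 51.8%) and 3585 lower. A difference of at least 2-fold was reached by 1290 genes (6.24%), and the median difference of all genes was -0.0033. The 5 D2 values lay wholly above or below the 5 B6 values for 4306 genes (20.8%).

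The share of spots well above background ran between 65.1% and 75.1% on D2 arrays and between 67.8% and 76.9% on B6 arrays. The Y-linked genes Ddx3y and Eif2s3y were high on all 30 arrays, with levels of at least 11.08 and 12.02, and Xist stayed at or below 4.54 outside D2 mouse 5, where it was 6.44. On the first principal component of the 10 arrays, with 50.1% of the variance, the strains stood apart. The second, with 18.5%, set the 4 arrays of scan day 3 (D2 mice 1 and 3, B6 mice 1 and 2) apart from the other 6. Scan days hold both strains except day 1, which holds D2 mouse 2 alone. Within scan day 2 (2 D2 and 3 B6 mice) 3361 genes passed (16.3%), and within scan day 3 (2 and 2 mice) 2349 genes passed (11.4%). With scan day as a block 6683 passed, and with slide as a block 6665.

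**Figure D1:**
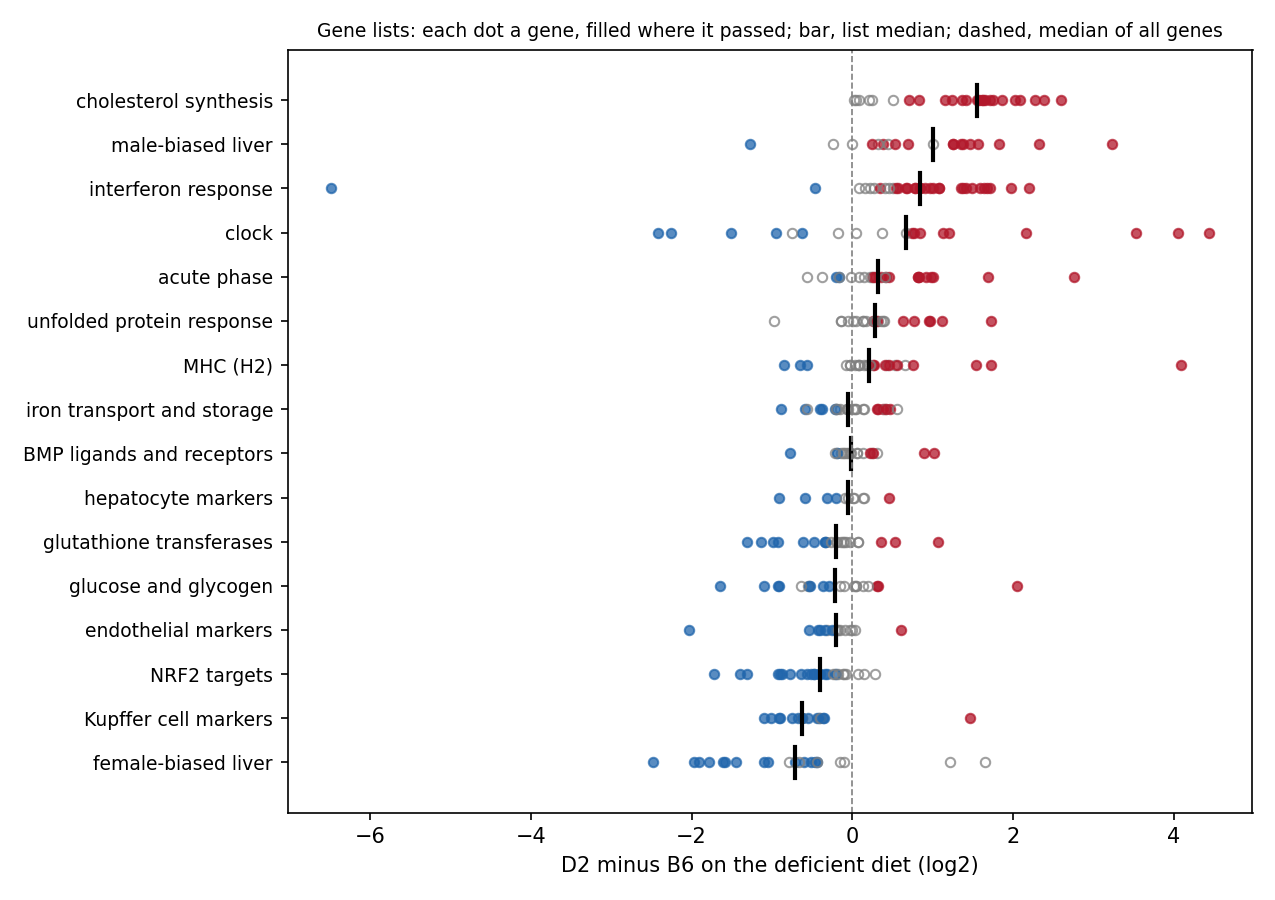
Strain differences of the genes of 16 lists on the deficient diet. Each dot is 1 gene, placed by its D2 minus B6 difference in log2 units, red where it passed and was higher in D2, blue where it passed and was lower, and open where it did not pass. The black bar is the list's median and the dashed line the median of all genes. Cholesterol synthesis genes all lie right of the dashed line, and Kupffer cell markers lie left of it apart from C6.

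Of the hepcidin genes and the BMP target genes, 1 passed between the strains on deficient iron, and Bmp6 lay near the threshold. Bmp6, the ligand that reports liver iron, had levels of 7.92, 8.21, 7.91, 8.08 and 8.17 in D2 livers, against 8.10, 8.24, 8.23, 8.37 and 8.31 in B6 livers. The ranges overlapped, and the difference of -0.19 did not pass (SE 0.08, limma adjusted p 0.0908). Another Bmp6 probe gave -0.68 and passed with a limma adjusted p of 0.000153 over all probes. Bmp6 also passed as lower in D2 with no normalisation between arrays (-0.32, limma adjusted p 0.0352), with 75th percentile scaling (-0.21, limma adjusted p 0.0456) and as the mean of its probes (-0.43, limma adjusted p 0.0011).

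Hamp, which encodes hepcidin, had levels of 8.94, 5.45, 4.21, 3.80 and 3.80 in D2 livers, against 9.27, 4.03, 4.33, 4.97 and 4.30 in B6 livers. Hamp was far higher in D2 mouse 1 and B6 mouse 1 than in the other mice of their strains, and these mice shared slide 10. Its difference was -0.14 (SE 0.85, limma adjusted p 0.933).

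Hamp2, the second mouse hepcidin gene, differed by 0.58 (SE 0.43, limma adjusted p 0.366). Id1, a target of BMP signalling, had levels of 8.66, 8.82, 8.30, 8.40 and 8.69 in D2 livers, against 8.55, 9.36, 9.42, 9.66 and 9.37 in B6 livers. Most D2 mice were below most B6 mice, but the ranges met, and the difference of -0.70 did not pass (SE 0.31, limma adjusted p 0.0973). Id1 passed without B6 mouse 1 (-0.88, limma adjusted p 0.0401) and in the fit of the 10 deficient arrays alone (-0.70, limma adjusted p 0.0255). Smad7, the inhibitory SMAD, differed by -0.01 (SE 0.22, limma adjusted p 0.984) and Atoh8, a helix-loop-helix factor, by -0.08 (SE 0.20, limma adjusted p 0.828). Of 14 SMAD and BMP target genes, 1 passed, Smurf1, a ubiquitin ligase of SMADs, with 0.66, and its other probe gave 0.11 and did not pass. A second gene passed as higher without D2 mouse 3 or B6 mouse 2, and 1 as lower without D2 mouse 2 or B6 mouse 1. With no mouse left out, 7.14% of the 14 passed, beside 28.9% of all genes.

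Of 20 BMP ligands, receptors and partners, 4 passed as higher and 2 as lower in D2, and their median was -0.02. The share that passed, 30%, stands beside 28.9% of all genes. Hfe, the hemochromatosis protein that works upstream of hepcidin, had levels of 11.97, 12.05, 11.82, 11.99 and 11.81 in D2 livers, against 12.69, 12.56, 12.56, 12.83 and 12.86 in B6 livers. All D2 livers were lower than all B6 livers, at -0.77 (SE 0.07, limma adjusted p 5.05e-09), and a further Hfe probe gave -2.07. Hfe differed by -0.72 on balanced and -0.81 on enriched iron. Bmp7 and Bmp4, other BMP ligands, were higher in D2 by 1.02 (SE 0.17, limma adjusted p 3.97e-05) and 0.89 (SE 0.16, limma adjusted p 7.47e-05). Acvr1, a type I BMP receptor, was lower at -0.19 (SE 0.07, limma adjusted p 0.0446), and did not pass without any single one of D2 mice 2 to 5 or B6 mice 2 to 4, at -0.20 to -0.15.

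Iron transport and storage genes moved by small amounts in both directions, and 40% passed, beside 28.9% of all genes. Of 25 tested, 5 passed as higher and 5 as lower in D2 (3 as lower without D2 mouse 1 or B6 mouse 2, and, in limma with no normalisation between arrays, 0 as higher, 1 at an unadjusted p of 0.05, and 6 as lower), with a median of -0.05 and a range of -0.89 to 0.56. Slc40a1, ferroportin, had levels of 13.71, 13.91, 13.62, 13.92 and 14.07 in D2 livers, against 13.01, 13.53, 13.55, 13.35 and 13.70 in B6 livers and was higher in D2 by 0.42 (SE 0.13, limma adjusted p 0.0184). It did not pass without B6 mouse 1 (0.31, limma adjusted p 0.0755) or without D2 mouse 5 (0.36, limma adjusted p 0.0584). Tfrc, the transferrin receptor that cells raise when iron is short, differed by -0.05 (SE 0.18, limma adjusted p 0.889), Fth1, ferritin heavy chain, by -0.07 (SE 0.06, limma adjusted p 0.414) and Ftl1, ferritin light chain, by 0.05 (SE 0.11, limma adjusted p 0.801). Steap3, an endosomal ferrireductase, was higher by 0.46 (SE 0.11, limma adjusted p 0.00182), while its other probe gave 0.37 and did not pass. Lower in D2 were Steap2, another metalloreductase of that family (-0.89, SE 0.17, limma adjusted p 0.000213), and Slc11a1, the metal transporter of phagosomes (-0.59, SE 0.12, limma adjusted p 0.000394).

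Heme genes showed 2 larger gaps. Alad, the second enzyme of heme synthesis, which is known to be duplicated in DBA/2 mice, had levels of 15.17, 15.18, 15.06, 15.11 and 15.13 in D2 livers, against 13.50, 13.79, 13.67, 13.50 and 13.85 in B6 livers. Every D2 liver was above every B6 liver, by 1.47 or 2.76-fold (SE 0.08, limma adjusted p 4.59e-14), and the difference was 1.66 on balanced and 1.68 on enriched iron. Alas2, the erythroid form of the first enzyme, had levels of 12.72, 12.46, 12.86, 13.28 and 12.81 in D2 livers, against 11.71, 11.83, 10.96, 11.84 and 12.10 in B6 livers, a difference of 1.14 (SE 0.17, limma adjusted p 7.98e-06). Alas1, the form that hepatocytes use, differed by -0.44 and did not pass (SE 0.26, limma adjusted p 0.224). Urod and Uros, later enzymes of the pathway, were lower at -0.19 and -0.36 (SE 0.06, limma adjusted p 0.0266 and SE 0.12, limma adjusted p 0.0274). Uros did not pass without D2 mouse 2 or 3 or B6 mouse 1, 3 or 4 (-0.34 to -0.30), and Urod without D2 mouse 1 or 3 or B6 mouse 2 or 5 (-0.18 to -0.15). In all, 3 of 9 synthesis genes passed as higher and 3 as lower, 66.7% beside 28.9% of all genes. With any 1 mouse left out, 3 passed as higher and 0 to 2 as lower.

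Klf1, a transcription factor of red cell precursors, had levels of 9.97, 10.17, 9.55, 9.91 and 9.73 in D2 livers, against 7.63, 8.002, 7.55, 7.59 and 8.13 in B6 livers. The groups did not overlap, and the difference was 2.09 (SE 0.15, limma adjusted p 1.43e-11). Alas2 and Klf1 were the only 2 of 6 erythroid markers to pass in limma, 33.3% beside 28.9% of all genes. The globin gene Hba-a1 differed by 0.17 and the band 3 gene Slc4a1 by 0.11, neither past the test, and the summed signal of the 6 markers was 82380 to 115900 signal units in D2 livers and 81700 to 122300 in B6 livers. In whole-liver RNA, fewer cells of a type and less RNA per cell cannot be told apart. In heme breakdown and scavenging, 3 of 10 genes passed in each direction, 60% in all beside 28.9% of all genes. With no normalisation between arrays, 1 of them passed as higher and 4 as lower. Hp, haptoglobin, was higher by 0.45 (SE 0.08, limma adjusted p 0.000121) and Hmox1, heme oxygenase 1, lower at -0.78 (SE 0.14, limma adjusted p 8.83e-05). Mt2 and Mt1, metallothioneins that bind zinc and copper, were higher in D2 by 1.66 (SE 0.47, limma adjusted p 0.00864) and 1.31 (SE 0.40, limma adjusted p 0.0128), with wide spread: Mt2 had levels of 16.26, 15.81, 15.91, 15.90 and 16.09 in D2 livers, against 13.82, 16.02, 12.24, 14.12 and 15.46 in B6 livers. Neither passed in the fit of the 10 deficient arrays alone, where 0 of 7 genes of this list passed as higher (3 at an unadjusted p of 0.05), and Mt1 did not pass without B6 mouse 1 (1.05, limma adjusted p 0.0508) or 3 (0.95, limma adjusted p 0.0591). Another Mt1 probe gave 1.28 and did not pass (limma adjusted p 0.123 over all probes).

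The largest gaps between the strains were many-fold. Among genes seen in both strains, Ntrk2, the receptor of the growth factor BDNF, had the largest difference, with levels of 11.90, 11.37, 12.22, 11.81 and 11.94 in D2 livers, against 4.81, 6.29, 4.71, 5.33 and 6.02 in B6 livers. The D2 livers were all far above the B6 livers, by 6.42 (SE 0.38, limma adjusted p 2.77e-13); of its 2 other probes, one gave 6.19 and one 0.40, which did not pass. Ctse, the protease cathepsin E, had levels of 13.42, 13.49, 13.43, 13.11 and 13.66 in D2 livers, against 8.03, 7.62, 7.62, 7.61 and 7.54 in B6 livers, a difference of 5.74 (SE 0.15, limma adjusted p 2.03e-21). Rassf4, a Ras-association domain protein, was higher by 5.69, and all 5 further probes passed the same way, between 1.64 and 5.80.

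Also higher in D2 were Gpr12, an orphan receptor (4.49), Corin, the protease that activates atrial natriuretic peptide (4.48), Tnfrsf14, the receptor HVEM (4.04), and Dct, an enzyme of melanin synthesis (3.99). Snrnp25, a protein of the minor spliceosome, had levels of 13.84, 13.82, 13.95, 14.06 and 13.94 in D2 livers, against 10.22, 10.60, 10.31, 10.14 and 10.54 in B6 livers. Its groups were 3.56 apart with no overlap, and its other probe gave 3.68. The remaining named genes of this kind were Serpina3a, a serpin (4.38), Raet1e, a ligand of the NK cell receptor NKG2D (3.77), Fmn2, a formin (3.71, with another probe at -0.20 that did not pass), Tmc5, a channel-like protein (3.68), Hddc3, a phosphohydrolase (3.56), and the clock genes Nr1d1 and Dbp. All 15 passed, with differences between 3.56 and 6.42. Serpina3a was at the floor in 4 B6 livers, and Tnfrsf14 and Tmc5 were near it in B6, so their differences depend on the floor.

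Lower in D2 with the largest difference of this group was Ildr2, a membrane protein of the immunoglobulin-like receptor family, with levels of 5.12, 4.28, 4.40, 5.27 and 4.52 in D2 livers, against 10.61, 11.81, 11.74, 10.29 and 11.33 in B6 livers. The D2 livers were near the floor and the B6 livers well above it, a difference of -6.44 (SE 0.25, limma adjusted p 1.72e-17). Nnmt, which methylates nicotinamide, had levels of 11.69, 12.73, 10.76, 11.81 and 11.02 in D2 livers, against 15.74, 15.97, 15.64, 16.29 and 16.59 in B6 livers and a difference of -4.44 (SE 0.57, limma adjusted p 7.57e-07). Cdkn1a, the cell cycle inhibitor p21, had levels of 6.76, 7.26, 5.84, 6.64 and 6.82 in D2 livers, against 10.82, 10.59, 10.55, 11.73 and 11.01 in B6 livers, all D2 values below all B6 values, at -4.27 (SE 0.38, limma adjusted p 8.31e-10). Lpin1, a phosphatidate phosphatase of fat synthesis, had levels of 10.07, 11.28, 9.93, 10.51 and 11.03 in D2 livers, against 13.52, 14.16, 13.43, 14.39 and 14.71 in B6 livers, and its difference of -3.48 was matched by 3 further probes between -5.04 and -4.08.

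Further genes lower in D2 were Nlrp12, an inflammation sensor (-5.69), Folr2, a folate receptor of macrophages (-5.43), Mme, the peptidase neprilysin (-5.03), Pttg1, securin (-3.73), and Lepr, the leptin receptor (-3.49). The rest were Zfp874a, a zinc finger protein (-4.72), Cyp2c23, a P450 that epoxidises arachidonic acid (-4.38), Tceanc2, related to a transcription elongation factor (-4.34), Rsph6a, a radial spoke protein (-3.71), Ifi203, of the interferon-inducible p200 family (-3.56), and Plekhb1, a pleckstrin-domain protein (-3.53). Mme was near the floor in D2. Rsph6a had another probe at -0.15 that did not pass, and Ifi203 had 2 others at 0.45 and 0.97, the opposite sign. All 30 genes of these 2 groups passed within scan day 2 and within scan day 3. They were picked for large differences without overlap on the same arrays, so passing again gives no support of its own.

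**Figure D2:**
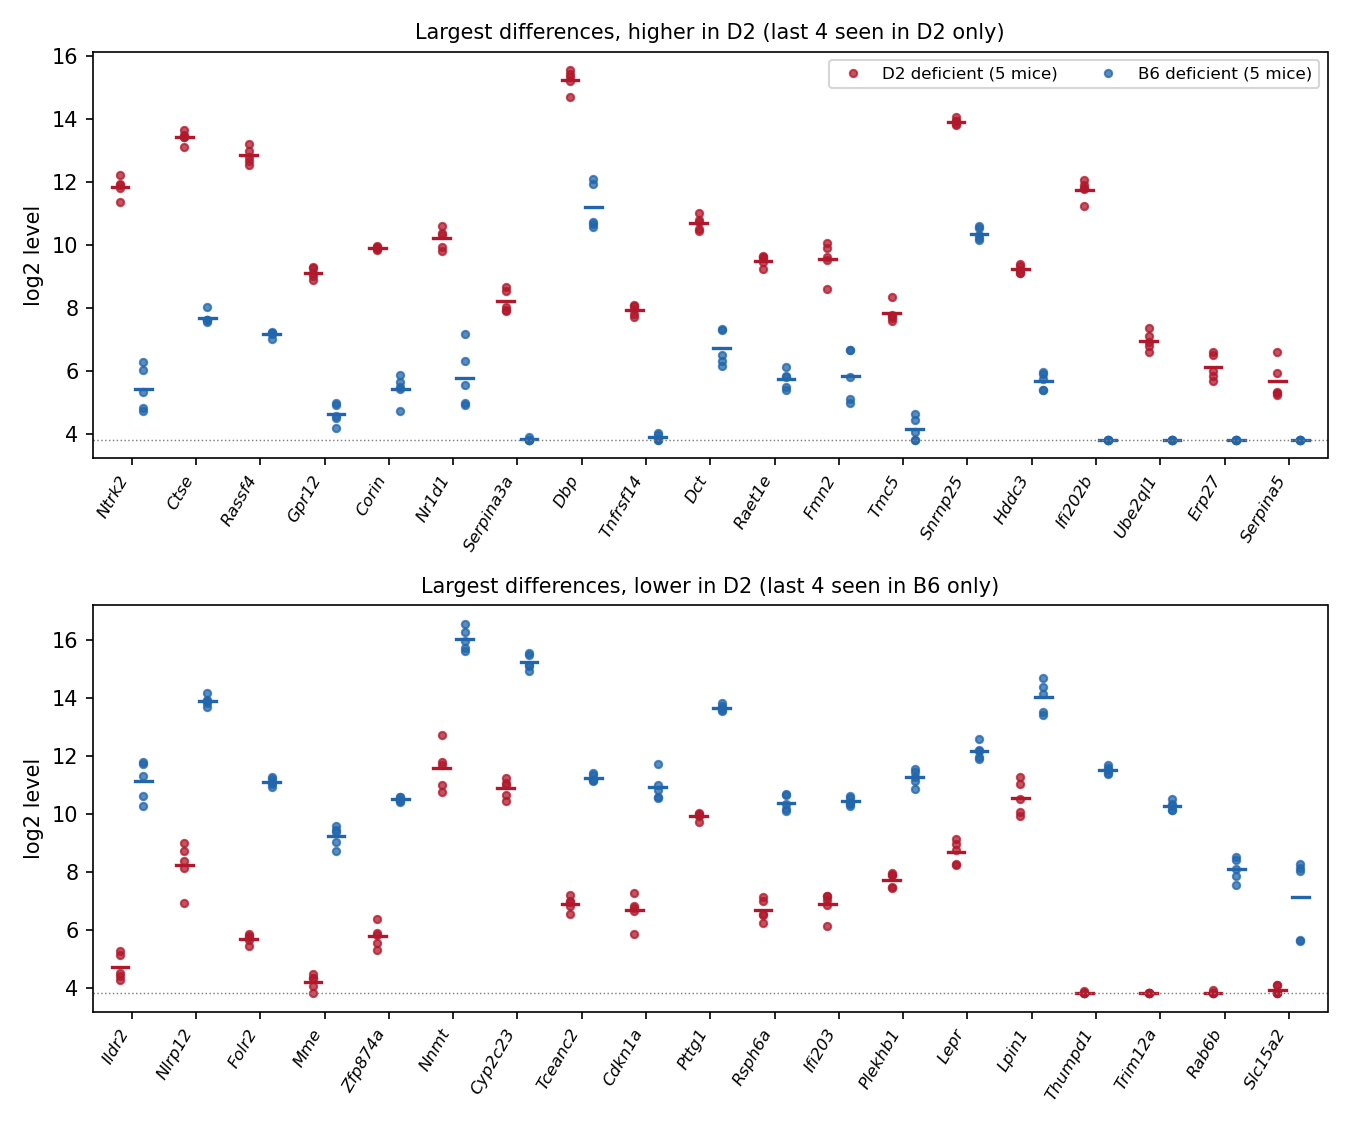
Levels of the genes with the largest strain differences in each mouse on the deficient diet, in log2 units, with D2 in red left of B6 in blue. Points are mice, bars are means of 5 mice and the dotted line is the floor. No gene shown has overlapping groups, and the last 4 of each row were at or near the floor in 1 strain.

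Some genes were well above background on all 5 arrays of 1 strain and on none of the other, so their folds are bounds. These genes passed the filter on dim signals through 1 strain, so their adjusted p gives no support of its own. Such a bound sets the strain that was seen against the lowest signal well above background, or the dim probe's own if higher. Of the 5972 genes, 23 were seen in D2 only and 57 in B6 only. Ifi202b, an interferon-inducible p200 gene known to be silent in B6, had levels of 11.82, 11.23, 11.77, 11.91 and 12.07 in D2 livers, against 3.80, 3.80, 3.80, 3.80 and 3.80 in B6 livers, at least 232-fold higher in D2 (limma adjusted p 1.2e-25). All B6 livers were at the floor. Next were Ube2ql1, a ubiquitin-conjugating enzyme (at least 8.26-fold), Erp27, a protein of the endoplasmic reticulum (at least 4.64-fold), and Serpina5, the protein C inhibitor (at least 3.41-fold). Tmem35a and Bmerb1 had bounds of 3.26-fold and 2.61-fold.

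In B6 only, Thumpd1, an RNA-binding partner of the tRNA acetylase, had levels of 3.80, 3.80, 3.80, 3.80 and 3.88 in D2 livers, against 11.68, 11.53, 11.39, 11.59 and 11.43 in B6 livers, at least 171-fold lower in D2 (limma adjusted p 5.4e-35). Another Thumpd1 probe differed by 0.15 and did not pass. That probe averaged 3.95 in D2 and 3.81 in B6, near the floor in both, so it cannot decide. The bound of Thumpd1 rests on 1 probe. Rab6b, a Golgi GTPase, was at least 15.8-fold lower in D2, Slc15a2, a peptide transporter, at least 8.16-fold, and Gzmb, granzyme B, at least 5.36-fold. Another Rab6b probe passed at only -1.05. Another Slc15a2 probe passed at only -0.59, averaging 5.14 in D2, above the floor, and 5.74 in B6. The bounds of Rab6b and Slc15a2 therefore rest on 1 probe each. Tafa2, Slc16a13 and Prdm16 had bounds between 3.91 and 7.82-fold, and Trim12a is described with the interferon genes. A second Tafa2 probe passed at -0.75. Among the 2330 genes that passed and had over 1 probe, 1260 (54.1%) had another probe passing the same way, and 301 had no other probe of the same sign. Whether strain variants under the probes play a part was not tested, since probe sequences were not used here.

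Of 20 genes tested that are known to differ between these strains in sequence, copy number or expression, 5 passed as higher in D2 and 6 as lower, 55% beside 28.9% of all genes. Hc, complement C5, which carries a frameshift deletion in DBA/2, had levels of 15.21, 15.09, 15.15, 15.39 and 15.36 in D2 livers, against 16.44, 16.65, 16.57, 16.44 and 16.71 in B6 livers, lower in every D2 liver, at -1.32 (SE 0.07, limma adjusted p 4.25e-14). Glo1, glyoxalase 1, known to be duplicated in DBA/2, was higher by 0.87 (SE 0.21, limma adjusted p 0.00174). Nnt, a mitochondrial transhydrogenase that is partly deleted in some B6 substrains, was higher by 1.56 (SE 0.08, limma adjusted p 2.18e-14); 2 further probes gave 1.50 and 1.46, and one gave 0.11 and did not pass. Car2, carbonic anhydrase 2, was lower at -1.04 (SE 0.15, limma adjusted p 4.39e-06).

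The clock genes differed by strain in opposite directions. The clock runs as a loop: ARNTL and CLOCK, with NPAS2 as a partner, switch on the Per, Cry, Nr1d and Dbp genes through E-boxes, and REV-ERB (Nr1d1, Nr1d2) and RORA act on Arntl through their response elements. Of 19 tested, 9 passed as higher in D2 and 5 as lower, 73.7% of the list beside 28.9% of all genes, and the list's median was 0.66 beside -0.0033 for all genes. Promoters of 3 of the genes are shown, from RefSeq on build GRCm38.p6, 300 bases each across the annotated start; they are the C57BL/6J reference and not D2 sequence. Capitals mark a motif on either strand: CACGTG (the E-box) in Ciart at chr3:95882179-95882478 (minus strand, 3 places), TTATGTAA (the D-box bound by DBP) in Per3 at chr4:151044616-151044915 (minus strand, 2 places), and TAGGTCA (the half-site of RORA and REV-ERB) in Arntl at chr7:113207261-113207560 (plus strand, 1 place), the second of its 2 annotated starts.
Ciart: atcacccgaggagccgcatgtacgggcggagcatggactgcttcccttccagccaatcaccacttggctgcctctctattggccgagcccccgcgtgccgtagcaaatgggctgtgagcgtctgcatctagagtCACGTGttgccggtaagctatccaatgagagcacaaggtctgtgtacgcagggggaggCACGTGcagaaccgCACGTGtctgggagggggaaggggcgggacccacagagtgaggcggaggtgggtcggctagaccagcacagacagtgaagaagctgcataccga
Per3: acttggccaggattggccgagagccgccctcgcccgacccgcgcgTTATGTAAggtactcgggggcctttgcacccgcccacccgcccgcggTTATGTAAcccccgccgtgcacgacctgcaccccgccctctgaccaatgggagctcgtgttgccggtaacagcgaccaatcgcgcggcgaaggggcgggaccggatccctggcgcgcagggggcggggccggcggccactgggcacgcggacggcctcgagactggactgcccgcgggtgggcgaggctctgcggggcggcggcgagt
Arntl: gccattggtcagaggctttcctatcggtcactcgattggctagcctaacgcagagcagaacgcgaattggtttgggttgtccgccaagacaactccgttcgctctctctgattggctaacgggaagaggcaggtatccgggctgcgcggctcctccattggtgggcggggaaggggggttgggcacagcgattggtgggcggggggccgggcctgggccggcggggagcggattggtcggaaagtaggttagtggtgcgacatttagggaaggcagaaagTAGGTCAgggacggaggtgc
CACGTG was in 7.15% of 32851 promoters of this length, TTATGTAA in 0.938% and TAGGTCA in 2.61%. Of 16 clock genes with a promoter in the table, 5 held CACGTG (Per1, Cry1, Tef, Bhlhe41 and Ciart), 1 TTATGTAA (Per3) and 2 TAGGTCA (Arntl and Nfil3). A gene was counted if any of its annotated starts held the motif, while the shares count each start.

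Among the genes that the loop switches on, Dbp, an activator that binds D-boxes, had levels of 14.69, 15.56, 15.35, 15.20 and 15.44 in D2 livers, against 10.73, 12.10, 10.67, 10.57 and 11.93 in B6 livers. Every D2 liver was higher, by 4.05 or 16.5-fold (SE 0.37, limma adjusted p 1.49e-09). Nr1d1, the repressor REV-ERB alpha, had levels of 10.30, 10.60, 10.37, 9.95 and 9.80 in D2 livers, against 7.15, 4.97, 6.30, 4.89 and 5.54 in B6 livers, 4.44 apart (SE 0.52, limma adjusted p 1.72e-07). Its other probes gave 0.97, which passed, and -0.01, which did not. Per3, a period gene with the D-box shown above, had levels of 9.30, 10.68, 9.90, 10.12 and 10.57 in D2 livers, against 5.05, 7.80, 6.16, 5.88 and 8.003 in B6 livers. The groups did not overlap and differed by 3.53 (SE 0.43, limma adjusted p 3.35e-07), and the lowest mouse of each strain was the one on slide 10.

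Ciart, a repressor of the ARNTL complex and the holder of 3 E-boxes above, had levels of 7.65, 10.52, 9.30, 9.16 and 9.52 in D2 livers, against 4.87, 8.39, 5.71, 7.52 and 8.84 in B6 livers. Here the ranges overlapped through D2 mouse 1, and the difference was 2.17 (SE 0.68, limma adjusted p 0.0164). Ciart did not pass without D2 mouse 2 (1.84, limma adjusted p 0.0549) or without B6 mouse 1 (1.62, limma adjusted p 0.0691) or 3 (1.83, limma adjusted p 0.0571). Nr1d2, the second REV-ERB, was higher by 1.21, Tef and Hlf, relatives of Dbp, by 1.13 and 0.74, Cry2, a repressor of the loop, by 0.84, and Bhlhe41, an E-box repressor, by 0.77. Bhlhe41 did not pass with no normalisation (0.56, limma adjusted p 0.173) or with 75th percentile scaling (0.67, limma adjusted p 0.0626). Tef passed with all 3 further probes, between 0.93 and 1.39. Per1 and Per2, the other period genes, differed by 0.04 (SE 0.30, limma adjusted p 0.94) and 0.37 (SE 0.39, limma adjusted p 0.554).

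Lower in D2 were 5 clock genes. Arntl, whose promoter above holds the half-site, had levels of 10.35, 8.64, 9.02, 8.77 and 8.19 in D2 livers, against 11.28, 11.21, 11.17, 11.70 and 10.90 in B6 livers, all D2 values below all B6 values, at -2.26 (SE 0.34, limma adjusted p 8.21e-06). Cry1 had levels of 6.34, 6.27, 5.69, 6.20 and 6.04 in D2 livers, against 7.45, 9.29, 7.98, 9.06 and 8.87 in B6 livers, a difference of -2.42 (SE 0.34, limma adjusted p 2.82e-06), and its other probe gave -2.28. Nfil3, a repressor at D-boxes, differed by -1.51 (SE 0.26, limma adjusted p 5.29e-05), Npas2 by -0.95 (SE 0.29, limma adjusted p 0.015) and Clock by -0.63 (SE 0.11, limma adjusted p 8.86e-05), with 3 further Clock probes between -1.11 and -0.71. Npas2 did not pass without B6 mouse 1 (-0.79, limma adjusted p 0.0525) or 4 (-0.71, limma adjusted p 0.067). The receptor Rora and the repressor Bhlhe40 did not pass, at -0.18 and 0.66. Within scan day 2, 5 clock genes passed as higher and 3 as lower, beside 16.3% of all genes in either direction. Scan day 3 gave 4 and 0 (8 and 4 at an unadjusted p of 0.05 in limma), beside 11.4%. On balanced iron 10 passed as higher and 3 as lower (beside 17.3% and 13.2% of all genes, 30.5% together), on enriched iron 9 and 5 (beside 18.2% and 17.6%, 35.8% together), and 0 of the 19 passed limma's test of the strain gap against balanced iron (3 at an unadjusted p of 0.05) or enriched iron (6 at that p). Among all genes, 0.0290% and 0.726% passed these gap tests. The hour of sampling is not given in the sources used here, so its part in the strain difference was not tested.

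**Figure D3:**
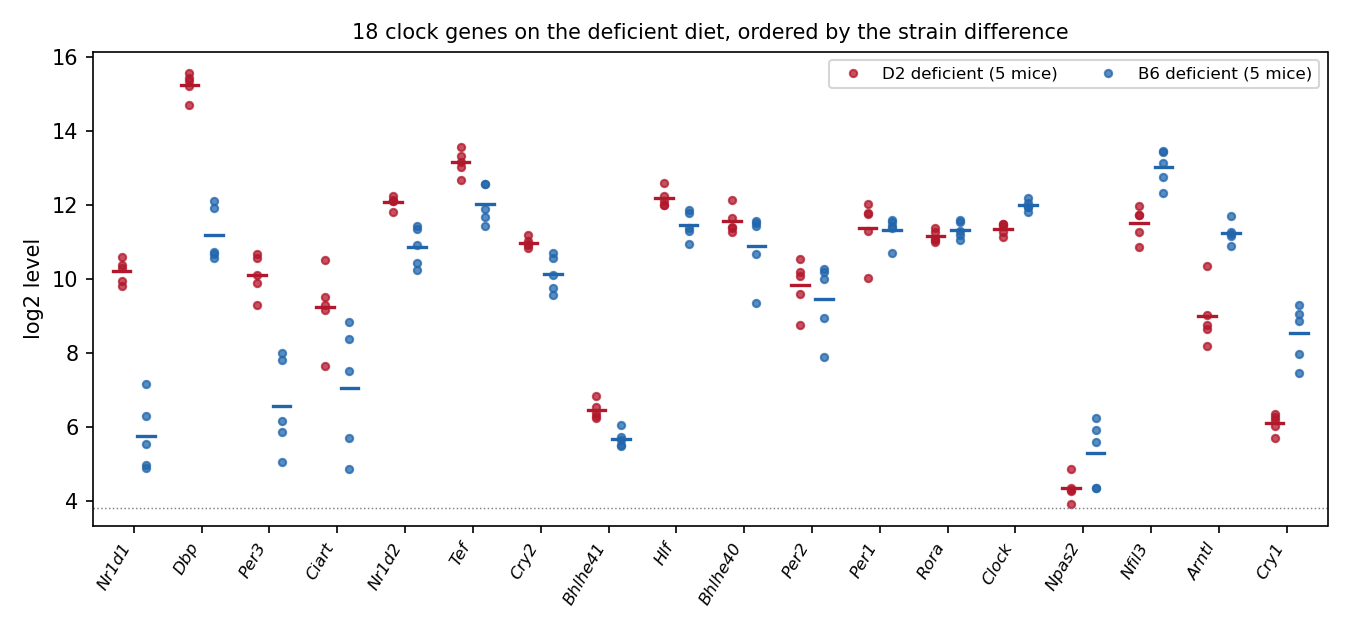
Levels of 18 clock genes in each mouse on the deficient diet, in log2 units, ordered by the strain difference, with D2 in red left of B6 in blue. Points are mice, bars are means of 5 mice and the dotted line is the floor. Nr1d1, Dbp and Per3 are high in all D2 livers, and Arntl and Cry1 are low in all of them.

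Interferon response genes were higher in D2 as a group, with Trim12a the large exception. These genes act against viruses and are switched on by STAT2 and IRF9, among others, through an interferon-stimulated response element. Of 33 tested, 24 passed as higher and 2 as lower in D2, beside 15% and 13.9% of all genes, with a median of 0.84. Promoters of 3 of the genes are shown as above, with capitals marking the core of that element, GAAA and a second GAAA with any 2 bases between them, on either strand. They are Isg15 (chr4:156200769-156201068 (minus strand, 3 places)) and Ifit1 (chr19:34640639-34640938 (plus strand, 2 places)), which were higher in D2, and Trim12a (chr7:104315446-104315745 (minus strand, 1 place)), which was seen in B6 only.
Isg15: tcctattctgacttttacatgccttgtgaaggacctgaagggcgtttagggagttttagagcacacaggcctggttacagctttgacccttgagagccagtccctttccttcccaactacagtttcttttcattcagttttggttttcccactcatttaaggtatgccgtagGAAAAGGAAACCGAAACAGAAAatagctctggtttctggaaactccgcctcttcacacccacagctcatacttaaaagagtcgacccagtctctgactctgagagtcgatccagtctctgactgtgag
Ifit1: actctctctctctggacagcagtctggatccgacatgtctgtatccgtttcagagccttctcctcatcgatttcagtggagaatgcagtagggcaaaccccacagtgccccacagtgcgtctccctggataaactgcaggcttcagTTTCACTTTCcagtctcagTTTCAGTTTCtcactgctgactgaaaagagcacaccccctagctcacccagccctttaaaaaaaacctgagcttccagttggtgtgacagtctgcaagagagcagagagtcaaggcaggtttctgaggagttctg
Trim12a: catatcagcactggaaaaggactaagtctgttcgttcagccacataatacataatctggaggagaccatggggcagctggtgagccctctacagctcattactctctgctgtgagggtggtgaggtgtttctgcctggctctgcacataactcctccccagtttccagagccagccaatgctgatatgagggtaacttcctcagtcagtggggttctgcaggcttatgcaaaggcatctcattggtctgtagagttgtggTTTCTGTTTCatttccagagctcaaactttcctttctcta
The motif was in 3.44% of all 32851 promoters and in 18 of the 26 interferon genes with a promoter in the table, Trim12a among them. The share counts each annotated start, while a gene was counted if any of its starts held the motif.

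Isg15, a ubiquitin-like antiviral protein, had levels of 10.47, 9.60, 10.27, 10.67 and 10.63 in D2 livers, against 8.98, 8.63, 9.03, 8.59 and 8.497 in B6 livers. The difference was 1.58 (SE 0.23, limma adjusted p 5.17e-06). Ifit1, which binds foreign RNA, had levels of 11.22, 9.58, 11.001, 11.22 and 11.41 in D2 livers, against 9.18, 9.07, 8.98, 9.02 and 8.30 in B6 livers, a difference of 1.98 (SE 0.28, limma adjusted p 2.77e-06). Mx2, an antiviral GTPase, had levels of 11.35, 10.76, 11.16, 11.19 and 11.25 in D2 livers, against 9.26, 8.89, 9.12, 8.87 and 8.57 in B6 livers, 4.59-fold higher in D2 (SE 0.22, limma adjusted p 6.98e-09). The groups did not overlap for Isg15, Ifit1 and Mx2. The next largest were Mx1 (1.72), of the same family, Gbp6 (1.68), a guanylate-binding protein, and Ifi44 (1.64). The transcription factors Irf9 and Irf7 were higher by 1.08 and 0.84.

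Trim12a, a tripartite-motif protein, had levels of 3.80, 3.80, 3.80, 3.80 and 3.80 in D2 livers, against 10.51, 10.29, 10.33, 10.15 and 10.13 in B6 livers. All D2 livers were at or near the floor, at least 72.2-fold below B6 (limma adjusted p 7.54e-26). A second probe passed at only -3.56, averaging 5.02 in D2, above the floor, and 8.58 in B6. The bound of Trim12a therefore rests on 1 probe. Bst2, tetherin, was the other gene lower in D2, at -0.47 (SE 0.15, limma adjusted p 0.0209), and did not pass without D2 mouse 2 (-0.39, limma adjusted p 0.0686) or B6 mouse 3 (-0.42, limma adjusted p 0.0573). On the arrays of scan day 2 alone, 21 interferon genes passed as higher and 1 as lower, with a median of 1.11. Scan day 3 gave 14 and 1, with a median of 0.83. These stand beside 16.3% and 11.4% of all genes in either direction. On balanced iron 21 passed as higher and 1 as lower, beside 17.3% and 13.2% of all genes. The counts on enriched iron were 28 and 1, beside 18.2% and 17.6%. Of the 33, 0 passed limma's test of the strain gap against balanced iron (0 at an unadjusted p of 0.05) or enriched iron (2 at that p). Among all genes, 0.0290% and 0.726% passed these tests.

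Genes of the major histocompatibility region, where the strains carry different haplotypes, differed in both directions. Of 26 tested, 9 passed as higher and 3 as lower in D2, beside 15% and 13.9% of all genes, with a median of 0.21. Those higher numbered 5 with no normalisation and 4 within scan day 3, where 11.4% of all genes passed in either direction. H2-Ea, a class II chain that B6 does not express because of a promoter deletion, had levels of 7.70, 7.92, 7.47, 8.68 and 8.47 in D2 livers, against 3.80, 4.58, 3.80, 3.80 and 3.80 in B6 livers. It was well above background on 5 D2 arrays and 1 B6 array, and the other 4 B6 livers were at the floor. The interferon-inducible Psmb9, an immunoproteasome subunit, was higher by 1.72 (SE 0.18, limma adjusted p 2.74e-08), and Tap1, the peptide transporter, by 1.54 (SE 0.16, limma adjusted p 1.68e-08). H2-K1, a class I heavy chain, was lower at -0.65, and its 2 other probes gave -0.51 and -1.87. H2-Q1 was lower at -0.85, while its other probes gave -0.03 and -7.52, and such near-identical class I genes may share signal.

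Cholesterol synthesis genes were higher in D2 almost throughout. The pathway is driven by SREBP2, which raises its enzymes when cells are short of sterol. Of 25 tested, 19 passed as higher and 0 as lower in limma (0 as lower at an unadjusted p of 0.05), 76% beside 15% of all genes higher, and the median was 1.55. Mvd, mevalonate decarboxylase, had levels of 10.75, 11.59, 10.31, 10.64 and 10.93 in D2 livers, against 6.66, 8.87, 8.37, 7.77 and 9.55 in B6 livers, 2.60 apart (SE 0.50, limma adjusted p 0.000201). Msmo1, a sterol oxidase, had levels of 16.62, 17.09, 16.37, 16.59 and 16.54 in D2 livers, against 12.82, 15.08, 14.13, 14.15 and 15.69 in B6 livers, a difference of 2.27 (SE 0.55, limma adjusted p 0.00226). The groups did not overlap for Mvd and Msmo1.

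Fdps, farnesyl diphosphate synthase, was higher by 2.09 (SE 0.48, limma adjusted p 0.00131). Srebf2, the gene of SREBP2 itself, differed by 0.51 and did not pass (SE 0.21, limma adjusted p 0.0645), but passed without B6 mouse 5 (0.66, limma adjusted p 0.0167), with normexp background (0.52, limma adjusted p 0.0385) and as the mean of its probes (0.62, limma adjusted p 0.0147). Acat2, Tm7sf2, Ebp and Sc5d, other genes of the pathway, did not pass, at 0.21, 0.08, 0.04 and 0.02, though Sc5d passed as higher as the mean of its probes (0.87, limma adjusted p 7.97e-05). B6 mouse 1 was the lowest B6 mouse for many of these genes; without it 16 of 25 passed as higher. Within scan day 2, 7 passed as higher with a median of 1.13, beside 16.3% of all genes in either direction. Within scan day 3, where 11.4% of all genes passed, 0 passed in limma (14 as higher at an unadjusted p of 0.05). The median there was 1.75. The list had 13 higher and 0 lower on balanced iron, with a median of 1.02, and 2 higher and 1 lower on enriched iron, with a median of 0.31. Of all genes, 17.3% were higher and 13.2% lower on balanced iron, and 18.2% and 17.6% on enriched iron. Of the 25 genes, 0 passed limma's test of the strain gap against balanced iron (4 at an unadjusted p of 0.05) and 1 that against enriched iron (13 at that p). Among all genes, 0.0290% and 0.726% passed these tests.

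Bile acid genes, which use cholesterol, passed as higher in 9 of 19 and as lower in 3, 63.2% beside 28.9% of all genes. Cyp7a1, the rate-limiting enzyme of bile acid synthesis, had levels of 15.03, 15.36, 14.85, 15.13 and 15.10 in D2 livers, against 14.47, 13.23, 12.76, 14.07 and 14.13 in B6 livers, a difference of 1.36 (SE 0.24, limma adjusted p 7.11e-05), and its other probe gave 1.11. Cyp7b1, of the alternative route, was higher by 1.83 (SE 0.58, limma adjusted p 0.0184) but did not pass without D2 mouse 3 or 4 or B6 mouse 3 (1.50 to 1.51). Cyp39a1, an oxysterol hydroxylase, was lower at -2.47 (SE 0.30, limma adjusted p 3e-07). Nr0b2, the repressor SHP that bile acids raise, was lower at -1.34 (SE 0.42, limma adjusted p 0.0162), and did not pass without B6 mouse 2 (-1.05, limma adjusted p 0.0669). Abcg8, a subunit of the canalicular sterol exporter, was higher by 1.59 (SE 0.14, limma adjusted p 7.46e-10).

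Genes of fat metabolism passed in both directions. Beside 28.9% of all genes, 45.5% of the synthesis list and 35.5% of the oxidation list passed. In fatty acid synthesis 5 of 22 passed as higher and 5 as lower (3 as lower without D2 mouse 1 or 5 or B6 mouse 4). Scd1, the desaturase that makes oleate, had levels of 15.28, 12.68, 14.17, 13.98 and 14.79 in D2 livers, against 15.50, 15.20, 16.49, 15.62 and 15.28 in B6 livers, a difference of -1.44 (SE 0.35, limma adjusted p 0.00204). Me1, malic enzyme, was lower at -1.40 (SE 0.13, limma adjusted p 2.96e-09), and Srebf1, the gene of SREBP1, and Pnpla3, a lipid droplet enzyme, were higher by 1.21 and 1.04. In fatty acid oxidation 7 of 31 passed as higher and 4 as lower (3 as higher without B6 mouse 2, and 4 without D2 mouse 1 or 2 or B6 mouse 4). Pdk4, the kinase that shuts off pyruvate oxidation in fasting, was lower at -2.27 (SE 0.26, limma adjusted p 1.11e-07) and Cd36, a fatty acid transporter, at -1.61 (SE 0.28, limma adjusted p 6.53e-05), while Ppara, the fasting receptor, was higher by 1.10 (SE 0.10, limma adjusted p 7.81e-10) and Fgf21, its secreted target, by 1.35 (SE 0.42, limma adjusted p 0.015). Another Fgf21 probe gave 1.06 and did not pass (limma adjusted p 0.0578 over all probes).

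Of 20 glucose genes, 3 passed as higher and 8 as lower, 55% beside 28.9% of all genes, with a median of -0.22. Igfbp1, a binding protein that insulin lowers, had levels of 16.17, 16.63, 16.24, 16.53 and 16.07 in D2 livers, against 18.19, 17.98, 17.34, 18.29 and 18.11 in B6 livers, and was lower in D2 at -1.65 (SE 0.27, limma adjusted p 2.78e-05), and G6pc, the enzyme that releases glucose, at -0.93 (SE 0.28, limma adjusted p 0.014). Without D2 mouse 5, G6pc did not pass (-0.75, limma adjusted p 0.0551), and 1 gene of the list passed as higher. Within scan day 2, 0 glucose genes passed as higher in limma (2 at an unadjusted p of 0.05) and 1 as lower, and within scan day 3, 0 (0 at that p) and 5. On these days 16.3% and 11.4% of all genes passed in either direction. Fed or fasted state is not given in the sources used here.

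Targets of NRF2, the factor that raises antioxidant and conjugation genes, were lower in D2. Of 26 tested, 0 passed as higher (0 at an unadjusted p of 0.05 in limma) and 17 as lower, 65.4% beside 13.9% of all genes lower, with a median of -0.41. Abcc4, an efflux pump, had levels of 7.21, 7.44, 7.12, 7.05 and 7.45 in D2 livers, against 8.78, 8.95, 9.12, 8.87 and 9.13 in B6 livers. All D2 livers were below all B6 livers, at -1.72 (SE 0.13, limma adjusted p 3.03e-11), and its other probe gave -1.63. Gsta2 and Gsta1, glutathione transferases, were at -1.31 (SE 0.26, limma adjusted p 0.000239) and -0.92 (SE 0.20, limma adjusted p 0.000923). Nqo1, a quinone reductase and classic target, had levels of 9.32, 10.003, 8.29, 9.04 and 9.08 in D2 livers, against 9.82, 9.65, 10.09, 9.999 and 10.56 in B6 livers, a difference of -0.88 (SE 0.23, limma adjusted p 0.00472). Gclm, a subunit of the rate-limiting enzyme of glutathione synthesis, was at -0.90 (SE 0.12, limma adjusted p 1.19e-06). For these targets, 9 passed as lower within scan day 2 and 4 within scan day 3, beside 16.3% and 11.4% of all genes in either direction. On both days 0 targets passed as higher (0 at an unadjusted p of 0.05 in limma). On balanced iron 2 passed as higher and 7 as lower, beside 17.3% and 13.2% of all genes. The counts on enriched iron were 1 and 14, beside 18.2% and 17.6%.

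Glutathione transferases overlap with that list and had 3 of 22 higher and 8 lower (5 lower without B6 mouse 3). Among the cytochrome P450 genes of family 2, 8 of 33 passed as higher and 11 as lower (6 as lower without D2 mouse 3 or 4, and 7 without B6 mouse 3). In all, 50% of the transferases and 57.6% of these P450 genes passed, beside 28.9% of all genes. Cyp2g1 was higher by 2.13 (SE 0.42, limma adjusted p 0.000299) and Cyp2c38 by 1.79, although another Cyp2c38 probe gave -0.35 and did not pass. Cyp2c23 had levels of 11.07, 10.44, 10.66, 10.999 and 11.24 in D2 livers, against 15.13, 15.57, 14.94, 15.15 and 15.51 in B6 livers, and all D2 livers were lower. Of the other P450 genes, Cyp3a13 had levels of 12.56, 13.11, 12.63, 12.39 and 12.71 in D2 livers, against 15.55, 15.44, 15.47, 15.40 and 15.76 in B6 livers, a difference of -2.84 (SE 0.12, limma adjusted p 2.31e-16), and Cyp1a2, an enzyme of caffeine and arylamine oxidation, was higher by 1.30 (SE 0.13, limma adjusted p 1.31e-08). Among conjugating enzymes Ugt1a9 was higher by 1.80 (SE 0.13, limma adjusted p 1.32e-11) and Sult1d1 lower at -1.42 (SE 0.20, limma adjusted p 3.98e-06). Among transporters Slc22a7, an organic anion carrier, was higher by 2.44 (SE 0.36, limma adjusted p 6.35e-06) and Slco1a4, another, lower at -1.52 (SE 0.22, limma adjusted p 4.57e-06). P450, Ugt and Sult families hold near-identical copies, so a probe may read more than 1 gene.

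Genes that differ between male and female liver moved in opposite directions. In mice, growth hormone pulses set these genes apart through STAT5b, and the male and female lists were taken from that background. Of 19 male-biased genes tested, 13 passed as higher and 1 as lower in D2, beside 15% and 13.9% of all genes, with a median of 1.0004; of 21 female-biased genes, 0 passed as higher (1 at an unadjusted p of 0.05 in limma) and 14 as lower, with a median of -0.71. Hsd3b5, a steroid dehydrogenase of male liver, had levels of 10.27, 8.12, 11.83, 12.51 and 10.20 in D2 livers, against 6.63, 9.78, 4.49, 7.60 and 8.27 in B6 livers. The difference was 3.23 (SE 0.73, limma adjusted p 0.00119). Cyp2b9, a female-biased P450, had levels of 13.92, 13.45, 11.28, 11.48 and 14.27 in D2 livers, against 14.83, 14.90, 16.002, 14.22 and 13.95 in B6 livers, a difference of -1.90 (SE 0.72, limma adjusted p 0.0469), and its other probe gave -1.92 and did not pass. The groups overlapped for Hsd3b5 and Cyp2b9.

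Susd4, a complement regulator, was higher by 2.33 (SE 0.53, limma adjusted p 0.00118), and Ces2b, a carboxylesterase, was the male-biased gene that was lower, at -1.27 (SE 0.30, limma adjusted p 0.00157). Cyp2a4, a steroid hydroxylase of female liver, was lower at -1.78 (SE 0.45, limma adjusted p 0.00297) and Cyp2b13 at -1.97 (SE 0.74, limma adjusted p 0.0452). These counts rested on the shared estimate of spread: with the 10 deficient arrays alone, 8 male-biased genes passed as higher and 8 female-biased genes as lower. Within scan day 2, 3 male-biased genes passed as higher and 3 female-biased genes as lower, beside 16.3% of all genes in either direction. Scan day 3 gave 5 and 3, beside 11.4%. Without D2 mouse 3, D2 mouse 4, B6 mouse 1 or B6 mouse 3, the count of female-biased genes lower in D2 was 6, 7, 9 and 7. Cyp2b9 did not pass without D2 mouse 2, 3 or 4 or any of B6 mice 1 to 4 (-2.04 to -1.50), and Cyp2b13 without D2 mouse 2, 3 or 4 or B6 mouse 1, 2 or 3 (-2.08 to -1.57). The Y-linked genes were high in all 10 livers.

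On balanced iron, 3 male-biased genes passed as higher and 4 female-biased genes as lower, with 15 and 14 on enriched iron, beside 17.3% higher and 13.2% lower of all genes on balanced iron and 18.2% and 17.6% on enriched iron. Of the male-biased genes, 7 passed limma's test of the strain gap on deficient against enriched iron, beside 0.726% of all genes. Against balanced iron 0 passed (7 at an unadjusted p of 0.05), beside 0.0290%. Their median strain difference was 1.0004 on deficient, 0.40 on balanced and 1.85 on enriched iron. Of the female-biased genes, 0 passed the gap test against enriched iron in limma (6 at an unadjusted p of 0.05) and 1 that against balanced iron. Their medians on these diets were -0.71, -0.11 and -1.32. Growth hormone signalling genes gave 3 of 21 higher and 3 lower, 28.6% beside 28.9% of all genes. Igf1, the main growth hormone target, was higher by 0.43 (SE 0.09, limma adjusted p 0.000533), with other probes at 0.32, which passed, and -0.38, which did not. Cish, a STAT5 target, differed by -0.93 (SE 0.74, limma adjusted p 0.402), and Stat5b itself by -0.09 (SE 0.11, limma adjusted p 0.629); as the mean of its probes Stat5b passed as lower (-0.41, limma adjusted p 0.00369).

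**Figure D4:**
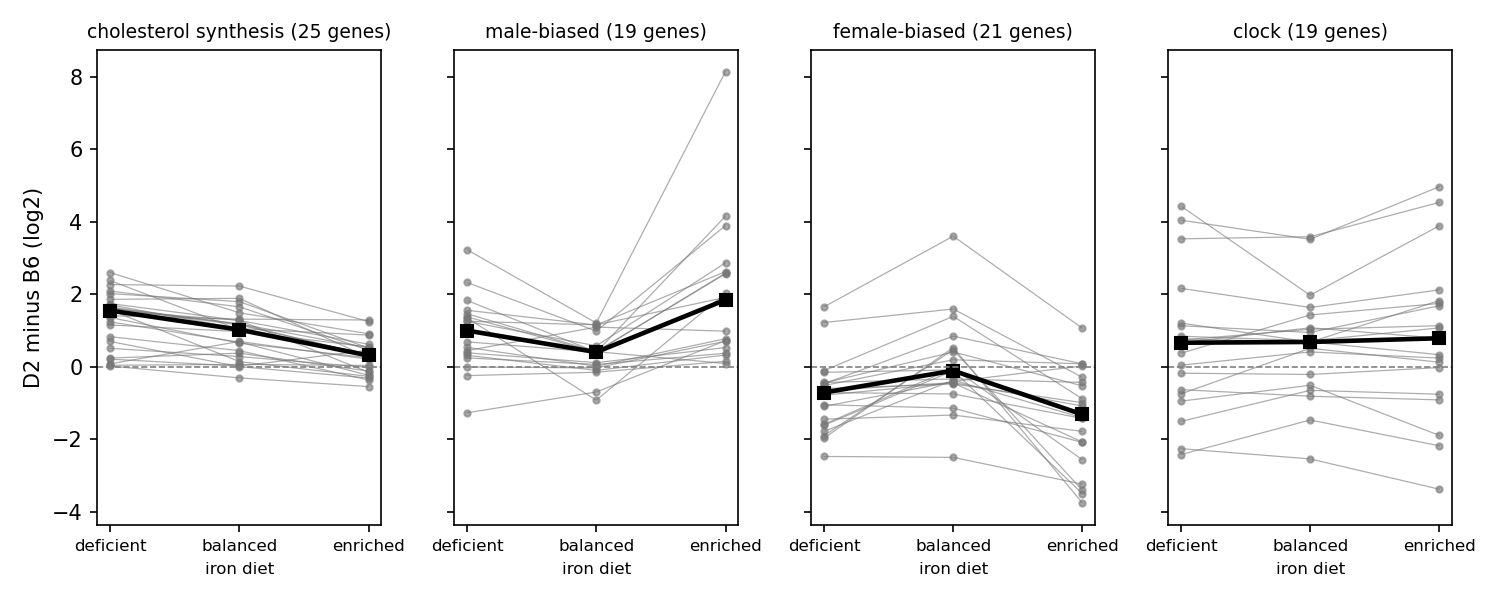
Strain difference (D2 minus B6, log2 units) of each gene of 4 lists on deficient, balanced and enriched iron. Grey lines are genes, black squares are list medians and the dashed line is 0. The cholesterol median falls with iron, at 1.55, 1.02 and 0.31, while the clock median stays between 0.66 and 0.79.

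Markers of Kupffer cells, the resident macrophages of liver, were lower in D2. Of 16 tested, 13 passed as lower and 1, C6, as higher, beside 13.9% and 15% of all genes, with a median of -0.62. C6 is also a complement gene of hepatocytes and male-biased. Their summed signal was 58560 to 77740 signal units in D2 livers and 94320 to 129300 in B6 livers, with no overlap between the strains. Adgre1, the F4/80 antigen, had levels of 11.08, 10.87, 11.30, 11.08 and 11.31 in D2 livers, against 12.11, 12.15, 12.46, 11.98 and 12.004 in B6 livers, at -1.01 (SE 0.15, limma adjusted p 4.48e-06). Clec4f, a lectin known as specific to these cells, had levels of 12.34, 12.02, 12.37, 12.30 and 12.63 in D2 livers, against 12.94, 13.05, 13.23, 13.01 and 12.78 in B6 livers, at -0.67 (SE 0.14, limma adjusted p 0.000428). The groups did not overlap for Adgre1 and Clec4f. Marco, a scavenger receptor, was at -1.10 (SE 0.30, limma adjusted p 0.00626), and Vsig4 and Timd4, receptors of resident macrophages, at -0.56 and -0.44; Timd4 did not pass without D2 mouse 2 (-0.37, limma adjusted p 0.0564). Cd163, the receptor for hemoglobin and haptoglobin, differed by -0.40 and did not pass (SE 0.16, limma adjusted p 0.0725), but passed with slide as a block (-0.51, limma adjusted p 0.021), with no normalisation (-0.50, limma adjusted p 0.024) and in the fit of the 10 arrays alone (-0.40, limma adjusted p 0.00624). The markers that passed as lower numbered 4 within scan day 2 and 6 within scan day 3, beside 16.3% and 11.4% of all genes in either direction. On balanced iron 13 passed as lower and 0 as higher, beside 13.2% and 17.3% of all genes, and on enriched iron 9 and 1, beside 17.6% and 18.2%. Slc11a1 and Folr2, lower in D2 above, are also expressed by these cells, and the part of cell number in any of these results was not tested.

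Markers of sinusoidal endothelium, the source of Bmp6, gave 1 of 16 higher and 6 lower, 43.8% beside 28.9% of all genes. Their median was -0.21, and their summed signal was 48500 to 55450 signal units in D2 livers and 56560 to 65870 in B6 livers. Lyve1, a hyaluronan receptor, had levels of 9.03, 9.21, 9.80, 9.33 and 9.85 in D2 livers, against 11.49, 11.42, 11.14, 12.003 and 11.30 in B6 livers. Every D2 liver was below every B6 liver, at -2.03 (SE 0.21, limma adjusted p 1.65e-08), and its other probe gave -2.01. Stab2 and Pecam1, other markers of these cells, did not pass, at -0.31 and -0.19, though Stab2 passed without D2 mouse 1 (-0.45, limma adjusted p 0.00845) and Pecam1 as the mean of its probes (-0.32, limma adjusted p 0.0117). Dnase1l3, a nuclease, was higher by 0.60. Among 19 T and NK cell markers, 0 passed as higher in limma (1 at an unadjusted p of 0.05, and 1 past the adjusted one without D2 mouse 3) and 5 as lower, with Gzmb first and Klrb1c, the NK1.1 antigen known from B6 and not from DBA/2, at -1.49 (SE 0.22, limma adjusted p 5.44e-06). In all, 26.3% of the T and NK cell markers passed, beside 28.9% of all genes. The T cell receptor genes Cd3e and Cd3g differed by -0.10 and 0.28 and did not pass, though Cd3g passed with scan day as a block (0.29, limma adjusted p 0.0498).

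Of 6 B cell and 8 neutrophil markers, 0 passed in limma, and at an unadjusted p of 0.05 these were 0 and 2; without D2 mouse 1 or 3, 2 neutrophil markers passed as higher. Stellate cell markers gave 3 of 14 higher and 1 lower (2 lower without D2 mouse 5 or B6 mouse 1), Col1a1, a collagen chain, at -1.27, whose 2 other probes gave -0.86 and 0.04 and did not pass. Of 6 cholangiocyte markers, Spp1, osteopontin, alone passed, at -1.08 (SE 0.19, limma adjusted p 9.37e-05), and a second passed as lower without B6 mouse 1 or 5. Hepatocyte markers, which define the tissue, were high in both strains, with a summed signal of 2081000 to 2177000 signal units in D2 livers and 2170000 to 2324000 in B6 livers. Of 11, 1 passed as higher (2 without D2 mouse 2) and 4 as lower, and Alb, albumin, differed by -0.05 (SE 0.09, limma adjusted p 0.758). Beside 28.9% of all genes, 28.6% of stellate, 16.7% of cholangiocyte and 45.5% of hepatocyte markers passed.

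Acute phase genes, which the liver secretes as plasma proteins, passed more often as higher than as lower in D2. Of 24 tested, 13 passed as higher and 2 as lower, beside 15% and 13.9% of all genes, with a median of 0.32. Apcs, serum amyloid P, had levels of 12.93, 12.35, 12.51, 12.96 and 13.10 in D2 livers, against 9.86, 9.75, 10.70, 9.85 and 9.90 in B6 livers. All D2 livers were higher, by 2.76 or 6.77-fold (SE 0.18, limma adjusted p 2.33e-12). Fga, a fibrinogen chain, was higher by 1.68 (SE 0.11, limma adjusted p 1.82e-12), while Fgb and Fgg, the other chains, differed by -0.20 (SE 0.07, limma adjusted p 0.0385) and -0.02 (SE 0.06, limma adjusted p 0.859). Fgb did not pass without any single mouse other than D2 mouse 5 or B6 mouse 1 (-0.21 to -0.16), and 0 to 2 acute phase genes passed as lower with 1 mouse left out. Saa1, which inflammation raises strongly, was higher by 0.83 (SE 0.23, limma adjusted p 0.00574), and Lcn2, another such gene, differed by -0.57 (SE 0.32, limma adjusted p 0.212) and passed as lower with slide as a block (-0.76, limma adjusted p 0.0477). The genes that passed as higher numbered 8 within scan day 2 and 6 within scan day 3, with 0 lower in both (0 and 1 at an unadjusted p of 0.05 in limma). Within these days 16.3% and 11.4% of all genes passed in either direction.

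In complement and coagulation, 12 of 35 passed as higher and 10 as lower, beside 15% and 13.9% of all genes. F11, a clotting factor, was higher by 1.52 (SE 0.15, limma adjusted p 5.42e-09) and C6, of the membrane attack complex, by 1.46 (SE 0.35, limma adjusted p 0.00207), and C1qc, made by macrophages, was lower at -0.90 (SE 0.11, limma adjusted p 5.56e-07). Among 27 serpins, 10 passed as higher and 3 as lower, beside 15% and 13.9% of all genes. Serpina11 had levels of 15.30, 15.03, 15.35, 15.48 and 15.29 in D2 livers, against 12.62, 12.66, 12.71, 12.67 and 12.87 in B6 livers, a difference of 2.58 (SE 0.09, limma adjusted p 1.29e-18). In the unfolded protein response, 8 of 24 passed as higher and 0 as lower in limma (11 and 0 at an unadjusted p of 0.05). The share of that list that passed, 33.3%, stands beside 28.9% of all genes. Trib3, a target of ATF4 and CHOP, was higher by 1.72 (SE 0.30, limma adjusted p 5.4e-05), with its other probe at 1.55, and Pdia4, a disulfide isomerase, by 0.96 (SE 0.12, limma adjusted p 2.21e-07). Hyou1, a chaperone, was higher by 1.12 (SE 0.16, limma adjusted p 4.13e-06), but its other probe gave -2.38 and passed, so its direction is not settled. Hspa5, the chaperone BiP, differed by 0.28 (SE 0.16, limma adjusted p 0.224).

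Hypoxia targets, which low iron can raise because prolyl hydroxylases need it, gave 1 of 17 higher (2 without D2 mouse 2) and 3 lower. Ndrg1 was higher by 0.79 (SE 0.21, limma adjusted p 0.00493), and Adm, adrenomedullin, lower at -0.53 (SE 0.14, limma adjusted p 0.0036). Cell cycle genes gave 3 of 24 higher and 4 lower (5 higher without B6 mouse 5), with Mcm3 higher by 0.79 and Mcm6, of the same replication complex, lower at -1.65 (SE 0.20, limma adjusted p 2.52e-07). Another Mcm3 probe gave 0.09 and did not pass. In all, 23.5% of hypoxia targets and 29.2% of cell cycle genes passed, beside 28.9% of all genes.

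Most strain differences on deficient iron were also present on the other diets. Of the 5972 genes, 4295 passed in the same direction on balanced iron (71.9% of these and 68.1% of the 6303 genes of balanced iron), and 4648 on enriched iron (77.8% of these and 62.8% of the 7400 genes of enriched iron). All 3 diets shared 3791 genes. On deficient iron alone, 803 genes passed, but 0 of them passed limma's test of the strain gap against balanced iron (181 at an unadjusted p of 0.05) and 10 that against enriched iron. Over all genes, 6 (0.0290%) passed the gap against balanced iron, and 150 (0.726%) that against enriched iron. These counts moved with the batch terms, to 10 and 200 with scan day as a block and to 0 (1697 at an unadjusted p of 0.05) and 68 with slide as a block. The count against balanced iron was 3 without D2 mouse 3, and that against enriched iron was 78, 87 and 98 without D2 mouse 1, B6 mouse 5 and B6 mouse 2.

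Plscr2, a phospholipid scramblase, changed sides. On deficient iron its levels were 11.13, 11.31, 11.15, 11.24 and 11.34 in D2 livers, against 11.96, 11.92, 11.73, 12.01 and 12.08 in B6 livers. All D2 livers were lower there, at -0.70 (SE 0.07, limma adjusted p 2.8e-08), and the strains differed by 0.00 on balanced (adjusted p 0.982) and 0.47 on enriched iron (adjusted p 1.27e-05). The gap differed with an adjusted p of 0.00917 against balanced and 2.19e-07 against enriched iron in limma. Plscr1, its relative, was at -0.80 on deficient and 0.17 on enriched iron, a gap that passed (limma adjusted p 0.000431). Slc16a11, a carrier of the monocarboxylate transporter family, had levels of 11.55, 11.71, 11.61, 11.53 and 11.41 in D2 livers, against 13.16, 13.21, 13.37, 13.004 and 13.08 in B6 livers. Its difference was -1.60 on deficient, -0.77 on balanced and -0.95 on enriched iron, larger on deficient iron by both tests (limma adjusted p 0.0101 and 0.0169). With slide as a block, the gaps of Slc16a11 (-0.88) and Plscr2 (-0.77) against balanced iron did not pass (limma adjusted p 0.0891 for each).

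Fmo2, a flavin oxygenase, was at -0.47 on deficient and 0.85 on balanced iron (limma adjusted p of the gap 0.0441). The gap did not pass with the compared groups alone (limma adjusted p 0.297) or slide as a block (0.221). Nor did it with normexp background, either narrower filter, no filter, the lower floor or no variance moderation (limma adjusted p 0.0516 to 0.08). The strain difference on deficient iron itself did not pass without 7 of the 10 mice in turn, all but D2 mice 2 and 5 and B6 mouse 1 (-0.49 to -0.33), and the same 7 ended the call of the gap. Its 2 further probes gave -1.61 and -0.64 on deficient iron, and both passed (limma adjusted p 2.62e-08 and 0.0459 over all probes). Kazald1, a secreted Kazal-domain protein, differed by -0.02 on deficient iron but by 0.57 on balanced iron (limma adjusted p of the gap 0.0285). Its gap did not pass without D2 mouse 2, 3 or 4 or B6 mouse 1, 2 or 3 (-0.59 to -0.56). It also did not pass with no normalisation, the compared groups alone or slide as a block (limma adjusted p 0.136, 0.265 and 0.173). Enpp6, a choline phosphodiesterase, averaged 3.80 in D2 and 4.15 in B6 on deficient iron, and 3.80 in D2 and 5.76 in B6 on balanced iron. Its gap, larger on balanced iron, passed against both other diets (limma adjusted p 0.00917 and 0.00316), but D2 was at the floor on all 3, so the gap follows B6 alone. Against balanced iron the call was lost with the lower floor (limma adjusted p 0.103), normexp background (0.218), the mean of its probes (0.0642), the compared groups alone (0.0573) and slide as a block (0.107). The transcript AK078597 was the sixth, at 0.25 on deficient and 1.65 on balanced iron, near the floor in B6. Its gap did not pass without D2 mouse 2, 3 or 4 or B6 mouse 4 or 5 (-1.39 to -1.31), with the lower floor (limma adjusted p 0.0566) or with slide as a block (0.173). Gal3st1, a sulfotransferase of glycolipids, was at -2.14 on deficient and -0.64 on balanced iron, a gap that did not pass (limma adjusted p 0.174).

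Against enriched iron, Bmp6 was among the genes with the smallest p. Its difference was -0.19 on deficient, -0.45 on balanced and -1.27 on enriched iron, and the gap passed (limma adjusted p 8.39e-06). It averaged 8.06 in D2 and 8.25 in B6 on deficient and 9.79 in D2 and 11.06 in B6 on enriched iron. Id4, another BMP target, was at 0.14 on deficient and -2.04 on enriched iron (limma adjusted p of the gap 9.49e-05). Tinag, a basement membrane protein, was at the floor in all 10 deficient livers and differed by -3.61 on enriched iron, where D2 was at or near the floor, so that difference is set by B6 and the floor. Apoc3, an apolipoprotein that slows triglyceride clearance, differed by -0.02 and -0.53 on these diets, and Chpf, a chondroitin polymerising factor, by 0.08 and -1.002. Cyp2c23 went the other way, with the larger gap on deficient iron, -4.38 beside -2.48 (limma adjusted p 0.000237).

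**Figure D5:**
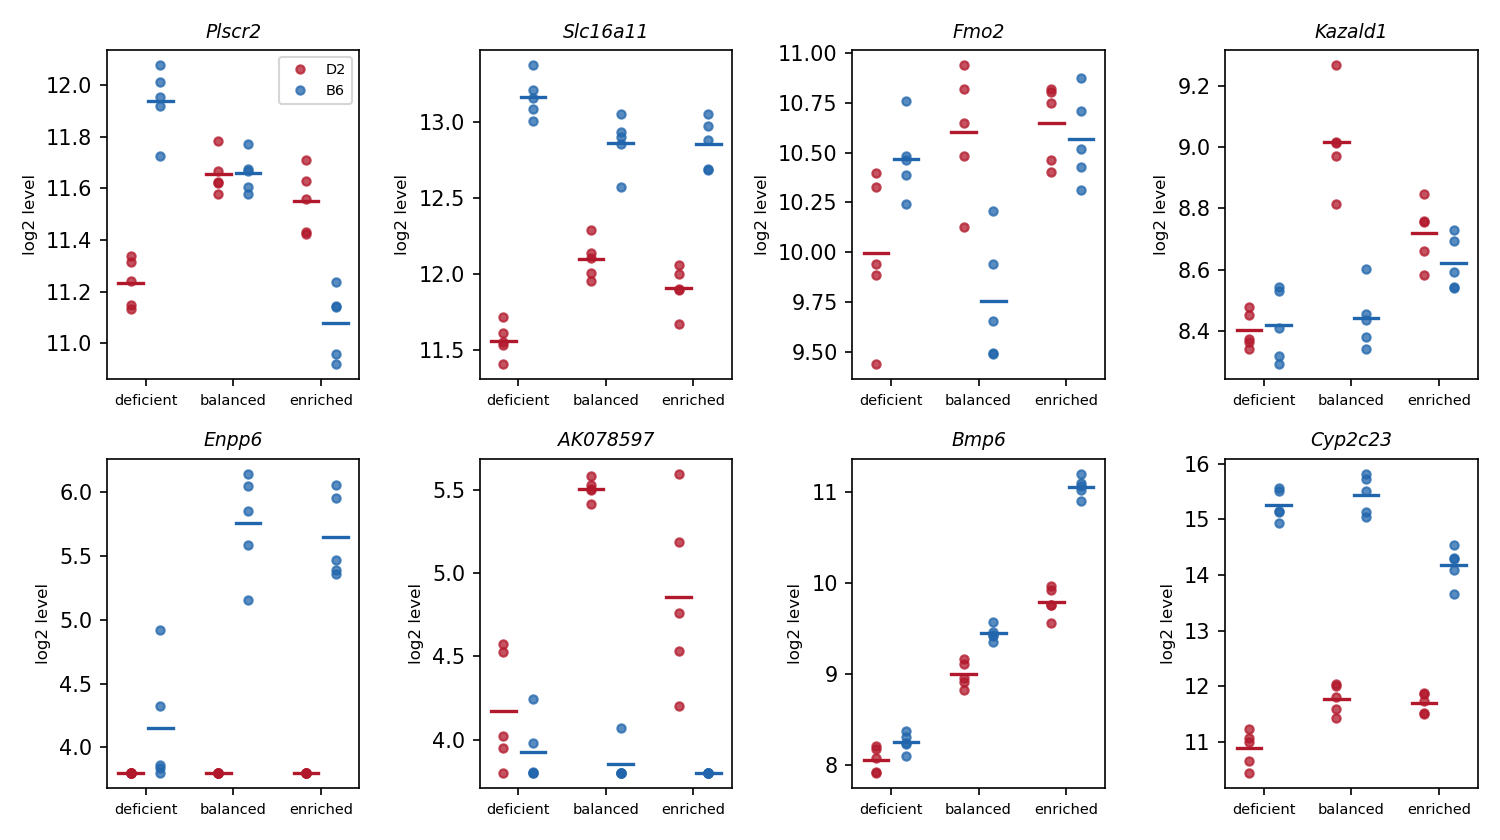
Levels (log2 units) per mouse of 8 genes whose strain gap was tested between diets, on deficient, balanced and enriched iron, with D2 in red left of B6 in blue. Points are mice and bars are means. Plscr2 is lower in D2 on deficient iron and higher in D2 on enriched iron, and Bmp6 lies higher on each richer diet in both strains, with a strain difference of -1.27 on enriched iron.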

How the data were processed

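The deposited values are processed intensities of single-colour Agilent arrays, background-subtracted and detrended within each array per the file headers, which name Feature Extraction 9.1.3.1 (the labels name 9.5.1). The deposited table holds the same values, with medians of 58.9 to 117 per array. Control and outlier-flagged spots were left out, spots of a probe averaged, and the intensities quantile-normalised, floored at 13.9 and taken to log2. Probes well above background on at least 3 of 5 arrays of at least 1 of 6 groups were kept, a wider filter than the series text's, which was run as an alternative. The probe of highest mean signal stood for its gene, and 8455 of the probes kept the array file's gene name where RefSeq gave none. limma 3.58.1 in R 4.3.3 was fitted to 6 group means over 30 arrays, with Benjamini-Hochberg adjustment over 20670 genes, and was tested on simulated data. The 5 mice per group limit the precision.

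Genes named are the 15 largest non-overlapping differences per direction among genes seen in both strains, the 8 largest bounds per direction among genes seen in 1, the 8 smallest p of each test of gaps, the title and hepcidin genes, and up to 4 leading genes of each described list (the clock list whole). Some genes that this rule picks are not reported here. Other list members were singled out after their values were seen. The comparison, its 43 lists (735 of 793 genes tested) and its genes were chosen with earlier results of these data known. Alternatives were normalisation, background correction, filter, floor, probe rule, arrays in the fit, variance moderation, scan day, slide, and each deficient array left out.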

Additional observations from a re-analysis of the deposited data

Results flagged for a closer look

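In a group of 5 mice, Dixon's test set 1 mouse apart from the other 4 in 27 of 387 pairs of a described gene and a strain (6.98%). For independent groups of normal values chance gives about 1 in 20. These pairs share the same mice, and some groups lay at the floor, so the share does not measure an excess. Values below are log2 levels, first of that mouse and then of the other 4. D2 mouse 1 was high for Ndrg1 (12.64 beside 11.37 to 11.71). D2 mouse 2 was low for Alb (18.47 beside 18.91 to 19.00) and Ifit1 (9.58 beside 11.001 to 11.41). D2 mouse 2 was high for Fth1 (18.16 beside 17.98 to 18.02). D2 mouse 4 was low for Acvr1 (9.88 beside 10.04 to 10.08). D2 mouse 4 was high for Rab6b (3.91 beside 3.80), Slc16a13 (3.90 beside 3.80), Slc4a1 (8.32 beside 7.83 to 7.97), Tafa2 (3.81 beside 3.80) and Tmc5 (8.34 beside 7.57 to 7.77). D2 mouse 5 was low for Pttg1 (9.71 beside 9.95 to 10.03) and Smurf1 (9.41 beside 9.55 to 9.58). D2 mouse 5 was high for Thumpd1 (3.88 beside 3.80). B6 mouse 1 was low for Id1 (8.55 beside 9.36 to 9.66) and Per1 (10.71 beside 11.37 to 11.60). B6 mouse 1 was high for Ctse (8.03 beside 7.54 to 7.62) and Hamp (9.27 beside 4.03 to 4.97). B6 mouse 2 was high for H2-Ea (4.58 beside 3.80). B6 mouse 3 was high for Apcs (10.70 beside 9.75 to 9.90), Pdia4 (12.79 beside 12.40 to 12.46) and Slc11a1 (10.52 beside 10.24 to 10.30). B6 mouse 4 was low for Cyp39a1 (13.60 beside 13.95 to 14.02), Fgg (18.21 beside 18.29 to 18.31) and Rassf4 (7.02 beside 7.16 to 7.22). B6 mouse 4 was high for Serpina3a (3.91 beside 3.80). B6 mouse 5 was low for Ifit1 (8.30 beside 8.98 to 9.18). B6 mouse 5 was high for Fth1 (18.21 beside 18.04 to 18.09). Those of D2 mouse 4 for Rab6b, Slc16a13 and Tafa2, of D2 mouse 5 for Thumpd1, of B6 mouse 2 for H2-Ea and of B6 mouse 4 for Serpina3a lay against groups at the floor. With the other 4 values at the floor, such a flag was all but fixed in advance. Hamp was low in the other 4 B6 mice, and B6 mouse 1 shared its slide with D2 mouse 1, also high for Hamp.

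The strain difference on deficient iron less that on another diet passed limma's test for 6 described genes against balanced iron and 19 against enriched iron. A positive value means a higher D2 minus B6 difference on deficient iron. Against balanced iron these were AK078597 (-1.40, adjusted p 0.0284), Enpp6 (1.61, adjusted p 0.00917), Fmo2 (-1.31, adjusted p 0.0441), Kazald1 (-0.59, adjusted p 0.0285), Plscr2 (-0.70, adjusted p 0.00917) and Slc16a11 (-0.84, adjusted p 0.0101). Against enriched iron the negative ones were Alas2 (-1.30, adjusted p 0.00679), Ces2b (-1.99, adjusted p 0.0199), Corin (-1.25, adjusted p 0.0499), Cyp1a2 (-1.04, adjusted p 0.00551), Cyp2c23 (-1.90, adjusted p 0.000237), Folr2 (-1.27, adjusted p 0.00234), Hsd3b5 (-4.92, adjusted p 0.02), Plscr1 (-0.97, adjusted p 0.000431), Plscr2 (-1.17, adjusted p 2.19e-07), Slc16a11 (-0.65, adjusted p 0.0169) and Slc16a13 (-1.40, adjusted p 0.0289). The positive ones against enriched iron were Apoc3 (0.51, adjusted p 0.000317), Bmp6 (1.08, adjusted p 8.39e-06), Chpf (1.08, adjusted p 0.00104), Enpp6 (1.50, adjusted p 0.00316), Id4 (2.18, adjusted p 9.49e-05), Slco1a4 (1.87, adjusted p 0.00297), Smad7 (1.61, adjusted p 0.00805) and Tinag (3.61, adjusted p 1.28e-07).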

How the results depend on the processing

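Of 205 genes picked by the naming rule or described that passed on deficient iron, 104 kept their direction and their call under all 25 alternatives. When each deficient mouse was left out in turn, 181 did so. In at least 1 alternative, 99 missed the threshold with their sign unchanged. The 15 and 15 genes with the largest differences seen in both strains passed within both scan days and with both batch terms. The rule that picked them on the same arrays made this likely, so it gives no support of its own. Values turned sign for Thumpd1 under both narrower filters (0.1473, through another probe), for Mtf1 with normexp background (0.0381) and for Hyou1 as the mean of its probes (-0.6291). None of these turned values passed.

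Genes that passed between the strains on deficient iron numbered 3361 within scan day 2 and 2349 within scan day 3, where fewer mice were compared, and between 5380 and 5746 with 1 mouse left out, beside 5972. The gap against balanced iron, 6 genes, gave 10 with no normalisation, with cyclic loess or with scan day as a block, 3 with the lower floor or the compared groups alone, 0 in limma with slide as a block (1697 at an unadjusted p of 0.05), 263 within scan day 3, and 3 to 7 with 1 mouse left out. The gap against enriched iron, 150 genes, gave 72 with no normalisation, 68 with slide as a block, 20 and 6 within scan days 2 and 3, and 78 to 196 with 1 mouse left out. The cause was not tested. Scan day 3 held only 1 D2 mouse on balanced iron, so the 263 genes rest on that array for D2. Scan day 2 held only 1 mouse of each strain on enriched iron, so the 20 genes rest on those arrays. A group of 1 mouse has no spread of its own, so no conclusion is drawn from either count. List counts under each alternative were added after seeing the data.

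No paired analysis was possible because the labels give no replicate numbers that groups share; slide, which can hold both strains, was fitted as a block instead. The series' own method, a permutation test in R/maanova, was not run. With 5 mice per strain, 1 tissue and 1 probe per gene, levels of dim genes rest on signals near the floor, sequence differences under probes cannot be told apart from expression, and hour, feeding and age were not tested.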
